A study of Mus musculus with 16 samples.

Results

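The genes described here are the neutrophil-attracting CXC chemokines Cxcl1, Cxcl2, Cxcl3 and Cxcl5, chosen by gene symbol for what the proteins do. Earlier results of these data were known when they were chosen. They are 4 of the 56941 genes in the table of counts, and all 4 had enough counts to be tested. CXC chemokines of this branch are small secreted proteins that draw neutrophils along a gradient by binding the receptor CXCR2, and the Duffy receptor ACKR1 binds them without signalling. Their genes are classical targets of NF-κB, the transcription factor that is released when IL-1β binds its receptor, and several of their messages are short-lived because of AU-rich stretches in the 3′ untranslated region. Gingival fibroblasts, the connective tissue cells of the gum, are among the cells that release them where plaque inflames the tissue.

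RNA was sequenced in bulk from primary wild-type murine gingival fibroblasts (mGF), grown out of gum tissue around an upper molar of C57Bl6 mice aged 3 to 6 months and used at passages 2 to 8. There were 16 libraries, 4 in each of 4 conditions, all at 24 h: BSA, the albumin vehicle that stands as control; IL-1β at 1 ng/mL; palmitate, a saturated fatty acid carried on BSA, at 200 μM; and palmitate + IL-1β, each as in the single treatments. Nothing in the labels says which libraries came from separate cultures or animals, so the p-values below measure only the spread between these libraries. The study compared the agents to ask how metabolic and inflammatory stress combine in these cells. Libraries are named here by their condition and the number the labels give them (BSA 1 to 4, IL-1β 5 to 8, palmitate 9 to 12, palmitate + IL-1β 13 to 16).

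Total counts per library ran from 21234789 to 92752515, and palmitate 10 was the deepest. Levels are given in CPM, counts scaled by TMM to a common library size, and 3 counts, taken as the counting floor, correspond to 0.0331 to 0.146 CPM. The 8 fibroblast markers were found in every condition. Their sum was between 31221 and 33355 CPM without palmitate and between 28182 and 30960 CPM with it. The markers did not all fall. With palmitate against BSA, 3 of the 8 were lower (Col1a2, Thy1 and Vim, log2 fold changes -0.17, -0.15 and -0.31). Pdgfra was higher (0.54), and the other 4 did not pass the test. The part of the shift in the sum in the results below was not tested. In contrast, the 6 neutrophil markers summed to at most 0.105 CPM in any library, the 3 T cell markers to 0.874, the 4 epithelial markers to 0.728 and the 3 endothelial markers to 1.40 CPM. The 7 macrophage or monocyte markers summed to between 2.57 and 4.35 CPM, and their ranges overlapped among all 4 conditions. In bulk RNA, fewer cells of a type and less RNA per cell cannot be told apart.

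The 4 ligand genes lay together on the plus strand of mouse chromosome 5 (GRCm39), within 146.612 kb. In order along the chromosome they were Cxcl5 (ENSMUSG00000029371.8, chr5:90907186-90909483), Cxcl3 (ENSMUSG00000029379.11, chr5:90933962-90937459), Cxcl1 (ENSMUSG00000029380.12, chr5:91039094-91040974) and Cxcl2 (ENSMUSG00000058427.11, chr5:91051730-91053797). The gap between Cxcl5 and Cxcl3 was 24.479 kb, that between Cxcl3 and Cxcl1 was 101.635 kb, and that between Cxcl1 and Cxcl2 only 10.756 kb. No other gene of the family lay within the gap between Cxcl1 and Cxcl2, while Ppbp and Pf4 lay between Cxcl5 and Cxcl3.

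Promoter sequences are shown because the 3 ligands with a known entry carried the same run of letters before their start. Cxcl5 had no entry, so its promoter was not searched. RefSeq's promoter table (GRCm38.p6) held entries for Cxcl1, Cxcl2 and Cxcl3, 3 of the 4 ligands, each with 250 bases before the start and 50 after, and each sequence matched GRCm39 exactly once. Capitals mark GGGAATTTCC, the run in these promoters that matches the consensus NF-κB (κB) site, and ATAAAAG, an A/T-rich box near the start. The windows were chr5:91038854-91039153, chr5:91051508-91051807 and chr5:90933710-90934009, all on the plus strand, and are written 5′ to 3′.
Cxcl1: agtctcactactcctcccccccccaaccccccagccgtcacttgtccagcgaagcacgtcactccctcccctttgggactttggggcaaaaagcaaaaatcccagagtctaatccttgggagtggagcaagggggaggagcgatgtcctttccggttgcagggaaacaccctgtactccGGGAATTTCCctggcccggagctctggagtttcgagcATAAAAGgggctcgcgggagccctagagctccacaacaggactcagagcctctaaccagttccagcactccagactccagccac
Cxcl2: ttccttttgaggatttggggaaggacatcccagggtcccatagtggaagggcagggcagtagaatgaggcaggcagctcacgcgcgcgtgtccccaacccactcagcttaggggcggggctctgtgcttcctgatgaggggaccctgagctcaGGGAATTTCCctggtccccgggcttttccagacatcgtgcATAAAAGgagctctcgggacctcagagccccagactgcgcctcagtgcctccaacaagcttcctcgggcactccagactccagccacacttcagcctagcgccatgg
Cxcl3: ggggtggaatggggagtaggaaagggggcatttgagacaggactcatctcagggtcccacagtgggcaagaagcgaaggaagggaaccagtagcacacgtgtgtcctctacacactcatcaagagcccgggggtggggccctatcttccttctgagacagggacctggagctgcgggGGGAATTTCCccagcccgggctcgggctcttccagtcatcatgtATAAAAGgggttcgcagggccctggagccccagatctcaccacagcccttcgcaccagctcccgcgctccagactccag

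GGGAATTTCC began at base -71 in Cxcl1, -97 in Cxcl2 and -73 in Cxcl3, counted from the table's start. Over both strands, the same letters were found in 29 of 32851 promoters of this length, or 0.0883%. ATAAAAG began at -34, -57 and -29 in the same order, and was found in 1779 promoters (5.42%). Both runs of letters together were found in 4 promoters (0.0122%), those of the 3 ligands and of Gm38531. The TATAAA box was found only in Cxcl3 among the 3, at -30, where it overlaps ATAAAAG (4473 of all promoters, 13.6%). The AP-1 letters TGANTCA were in none of the 3 windows, against 7.81% of all promoters, which says only that these letters were not in these windows. The letters searched were picked after the promoters had been read, so their shared presence is a description and not a test.

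The 3′ untranslated regions held repeats of the AU-rich pentamer ATTTA, the core of the elements that mark short-lived messages. The densest stretches of Cxcl1 and Cxcl2 are shown 5′ to 3′ with the repeats in capitals, as bases 79 to 108 and 123 to 152 of the 3′ untranslated region of the canonical transcript (GENCODE, GRCm39).
Cxcl1: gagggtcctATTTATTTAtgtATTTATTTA
Cxcl2: tATTTATTTAtctatgtATTTATTTATTTA

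Cxcl2 had 11 pentamers, or 15.0 per kb of its 3′ untranslated region. Cxcl1 had 7 (11.8 per kb), Cxcl3 had 5 (7.75 per kb) and Cxcl5 had 5 (4.50 per kb), against a median of 1.39 per kb over 12681 tested genes with such a region. Cxcl5 therefore differed from the other ligands in this feature: 7.44% of tested genes had at least its density, compared with 0.489%, 0.229% and 1.51% for Cxcl1, Cxcl2 and Cxcl3. The longer element TTATTTATT occurred 4 times in Cxcl2, 2 times in Cxcl1, 1 time in Cxcl3 and 0 times in Cxcl5, and at least once in 9.41% of the genes.

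Cxcl1, known as KC in the mouse, is the ligand most often measured in inflamed mouse tissue. Its level in the BSA libraries 1 to 4 was 14.6, 14.4, 12.8 and 15.4 CPM. In the IL-1β libraries 5 to 8 it was 145, 148, 166 and 145 CPM. Every IL-1β library lay above every BSA library. In the palmitate libraries 9 to 12 Cxcl1 was at 402, 397, 412 and 363 CPM. With both agents, in libraries 13 to 16, it was at 669, 630, 598 and 671 CPM. Thus the conditions formed 4 steps that did not overlap, in the order BSA, IL-1β, palmitate, palmitate + IL-1β. Each step passed the test between neighbours. The log2 fold change was 3.40 from BSA to IL-1β (standard error, SE, 0.06, adjusted p = 2.0e-27). Adjusted p-values of fold changes come from the quasi-likelihood F-test of edgeR, by the Benjamini-Hochberg method over all genes tested. It was 1.38 from IL-1β to palmitate (SE 0.05, adjusted p = 1.7e-19) and 0.71 from palmitate to palmitate + IL-1β (SE 0.05, adjusted p = 1.2e-11, edgeR).

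Cxcl5, known as LIX in the mouse, is a ligand that epithelial and stromal cells make in large amounts. In the BSA libraries it was at 2.81, 3.00, 3.24 and 2.87 CPM, from 82 to 95 counts. In the IL-1β libraries it was at 29.5, 28.8, 32.5 and 26.9 CPM. These libraries stood clear of BSA, but far under those with palmitate. Cxcl5 was at 566, 592, 577 and 594 CPM in the palmitate libraries. It was at 669, 637, 568 and 646 CPM with palmitate + IL-1β. The last 2 conditions overlapped, since palmitate + IL-1β 15 lay within the range of palmitate alone. From IL-1β to palmitate the log2 fold change was 4.30 (SE 0.06, adjusted p = 1.9e-31, edgeR), the smallest p among the 16306 genes tested in that comparison. From palmitate to palmitate + IL-1β it was 0.11 (SE 0.05, adjusted p = 0.152, edgeR), a difference that passed the threshold without palmitate + IL-1β 15 (0.16, adjusted p = 0.0259, edgeR).

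Cxcl2, known as MIP-2 in the mouse, is a close relative of Cxcl1 made by many cell types on inflammatory stimulation. In the BSA libraries it had 3 to 5 counts, at 0.148, 0.162, 0.114 and 0.175 CPM. In the IL-1β libraries it was at 5.32, 5.19, 5.70 and 5.10 CPM, and in the palmitate libraries at 4.52, 6.56, 5.32 and 4.52 CPM. The single agents gave overlapping levels, both clear of BSA. With both agents Cxcl2 was at 12.2, 11.5, 14.5 and 16.3 CPM. All 4 of these libraries lay above every library of the single agents. Between IL-1β and palmitate the log2 fold change was 0.02 (SE 0.12, adjusted p = 0.916, edgeR), and it was -0.15 without palmitate 10 (adjusted p = 0.440). Both agents together were higher than palmitate by a log2 fold change of 1.32 (SE 0.11, adjusted p = 3.6e-10, edgeR) and higher than IL-1β by 1.35 (SE 0.12, adjusted p = 4.7e-11, edgeR).

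Cxcl3, known as DCIP-1 in the mouse, binds the same receptor and was at the edge of detection. In the BSA libraries 1 to 4 it had 1, 0, 0 and 0 counts, at 0.0296, 0, 0 and 0 CPM, where 3 counts are the floor. In the IL-1β libraries it had 15, 10, 7 and 6 counts (0.614, 0.390, 0.222 and 0.249 CPM). It was thus found in each IL-1β library, at a low level. In the palmitate libraries it had 19, 59, 22 and 10 counts (0.923, 0.650, 0.808 and 0.411 CPM). With both agents it had 47, 23, 24 and 16 counts (1.33, 0.761, 0.772 and 0.589 CPM). The 3 treated conditions overlapped each other. Palmitate + IL-1β exceeded IL-1β by a log2 fold change of 1.27 (SE 0.35, adjusted p = 0.00549, edgeR), which no longer passed without palmitate + IL-1β 13, the highest library (0.95, adjusted p = 0.0541). Palmitate against IL-1β was 0.92 (SE 0.36, adjusted p = 0.0537, edgeR) and lay so close to the threshold that it passed when only the 8 libraries compared were fitted (0.91, adjusted p = 0.0443) or when any 1 of 4 libraries was left out. The difference between palmitate + IL-1β and palmitate did not pass (0.35, SE 0.31, adjusted p = 0.565, edgeR). At these counts no order of IL-1β, palmitate and their combination could be set beyond that.

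**Figure D1:**
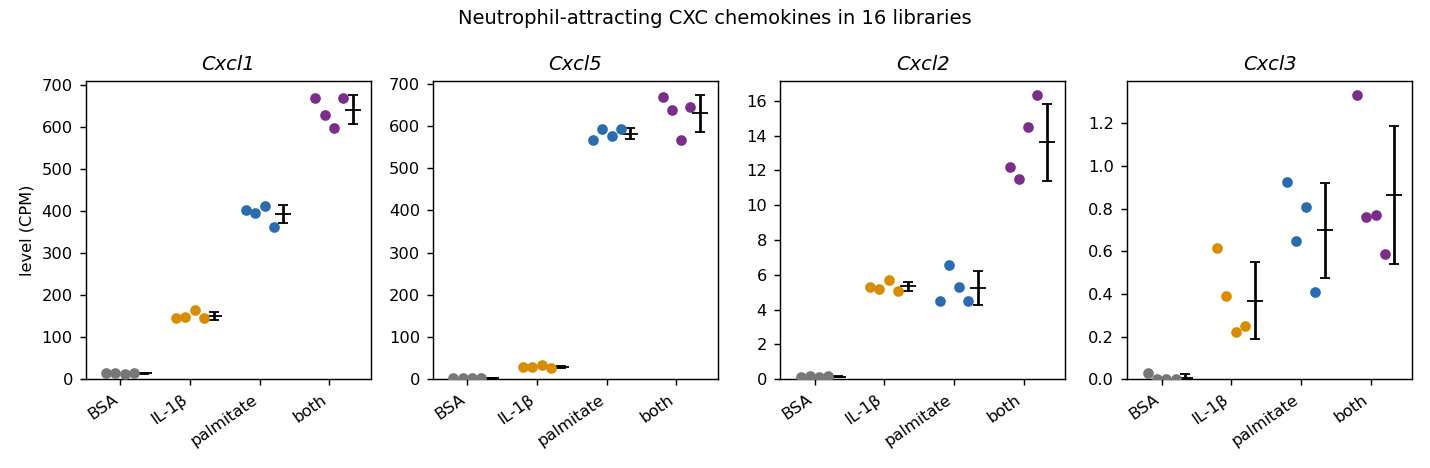
Level of each ligand (CPM, linear axis with its own range in each panel) in the 4 libraries of each condition. Points are libraries in the order of their numbers, and the bar beside them is the mean with the SD. Cxcl1 rises in 4 steps, Cxcl5 overlaps between palmitate (566 to 594 CPM) and both agents (568 to 669 CPM), Cxcl2 overlaps between the single agents, and Cxcl3 stays at or under 1.33 CPM.

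Against BSA, all 4 ligands were higher with IL-1β, a call made for 10.1% of all 16306 genes tested. With palmitate all 4 were higher again, against 19.8% of genes, and with palmitate + IL-1β all 4, against 24.8%. Cxcl2 and Cxcl3 passed the filter on low counts only through the treated libraries, so they had to differ from BSA, and their calls against it are a description. Every library of the treated condition lay above every BSA library for all 4 ligands in each of these comparisons, an ordering found for 11.1%, 19.5% and 22.2% of all genes. With palmitate the log2 fold change was 4.78 for Cxcl1 (SE 0.06, adjusted p = 6.3e-32, edgeR) and 7.61 for Cxcl5 (SE 0.07, adjusted p = 1.0e-35, edgeR). With IL-1β that of Cxcl5 was 3.31 (SE 0.08, adjusted p = 7.3e-25, edgeR), close to the 3.40 of Cxcl1.

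For Cxcl2 and Cxcl3 the few BSA counts set the precision. Over the 4 BSA libraries Cxcl2 had 18 counts in all, and its pooled level was 35.5 times BSA with IL-1β (exact 95% interval 22.3 to 60.4), 38.5 times with palmitate (24.2 to 65.2) and 89.7 times with both (56.6 to 152). Cxcl3 had 1 BSA count in all. Its pooled ratio was 43.0 with IL-1β (7.26 to 1741), 80.7 with palmitate (14.2 to 3218) and 106 with both (18.7 to 4235). These intervals cover counting error only, and those of Cxcl3 are too wide to rank it against the other ligands. Its fitted log2 fold changes of 4.90, 5.82 and 6.17 depend on the prior count of the fit. They were 6.55, 7.46 and 7.80 without BSA 1, and with any 1 library left out they ran from 4.56 to 6.55, 5.50 to 7.46 and 5.85 to 7.80.

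Adding IL-1β to palmitate gave a call of higher for 2 of the 4 ligands, Cxcl1 and Cxcl2, against 5.71% of all genes. Adding palmitate to IL-1β gave it for all 4, against 18.9%, with log2 fold changes of 2.09 for Cxcl1 (adjusted p = 5.6e-24, edgeR) and 4.42 for Cxcl5 (adjusted p = 9.9e-32, edgeR) beside those of Cxcl2 and Cxcl3 above. Palmitate was higher than IL-1β for 2 of 4, Cxcl1 and Cxcl5, against 16.5%. Libraries did not overlap for 2 ligands (9.16% of all genes), 3 ligands (16.7%) and 2 ligands (16.5%) in these comparisons. These comparisons share libraries and are not independent of each other.

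**Figure D2:**
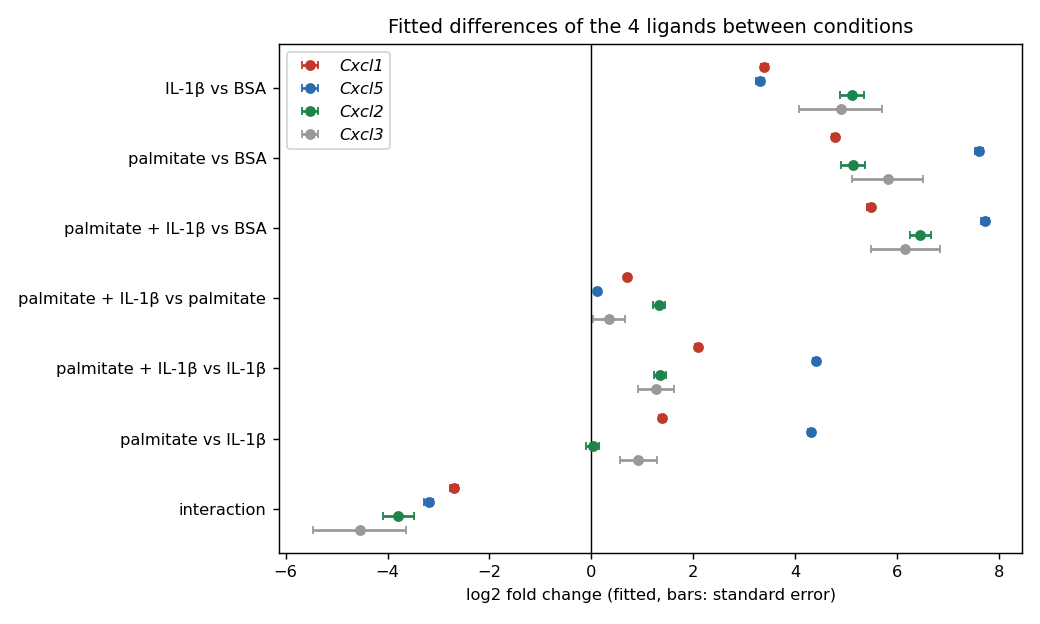
Fitted log2 fold change of each ligand (points; bars are the SE) in the 6 comparisons of conditions and for the interaction of the agents. Cxcl5 lies above Cxcl1 and Cxcl2 where palmitate is set against a condition without it (7.61 against BSA, 4.30 against IL-1β), while Cxcl2 lies at 0.02 between palmitate and IL-1β. The bars of Cxcl3 are the widest, with 1 count in BSA.

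Whether the ligands differed in their response was tested on the ratio of the counts of 2 ligands within each library, which does not depend on library size. Gene length was not corrected for here, so only the change of a ratio between conditions is read. Of the 24 tests planned (6 pairs of ligands in 4 comparisons) 18 were run, because those of Cxcl3 against BSA rest on at most 3 counts per library. Of these, 11 reached the smallest two-sided p that 4 against 4 libraries allow, 0.0286 by exact permutation, or 0.0468 after Benjamini-Hochberg adjustment. With IL-1β, the ratio of Cxcl1 to Cxcl5 did not differ from BSA beyond the spread (difference in log2 ratio 0.10, SE 0.10, exact permutation, adjusted p = 0.484). Cxcl2 moved away from both. The log2 ratio of Cxcl1 to Cxcl2 fell by 1.62 from 6.44 to 4.82, and that of Cxcl2 to Cxcl5 was 1.72 higher (exact permutation, adjusted p = 0.0468 for each). Cxcl2 had only 3 to 5 counts per BSA library and passed the filter on low counts only through treated libraries. Its ratios against BSA are therefore a description.

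With palmitate the pattern of the ratios was another one. The ratio of Cxcl1 to Cxcl2 did not differ from BSA beyond the spread (difference -0.19, SE 0.13, exact permutation, adjusted p = 0.184), while Cxcl5 moved away from both. Cxcl2 had 18 BSA counts in all, so its ratio to Cxcl1 is not shown to be unchanged. Its ratios against BSA are again a description. The log2 ratio of Cxcl1 to Cxcl5 went from 2.26 in BSA to -0.57 in palmitate, a difference of -2.82 (SE 0.11), and that of Cxcl2 to Cxcl5 changed by -2.63 (SE 0.19; exact permutation, adjusted p = 0.0468 for each). Compared directly, palmitate and IL-1β differed in 4 of the 6 ratios. They were Cxcl1 to Cxcl2 (1.43), Cxcl1 to Cxcl5 (-2.92), Cxcl2 to Cxcl5 (-4.35) and Cxcl3 to Cxcl5 (-3.37), with an adjusted p of 0.0468 by exact permutation for each. The ratio of Cxcl1 to Cxcl3 (0.45, SE 0.41, exact permutation, adjusted p = 0.386) and that of Cxcl2 to Cxcl3 (-0.98, SE 0.43, exact permutation, adjusted p = 0.119) did not pass.

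When IL-1β was added to palmitate, Cxcl2 gained on Cxcl1 and Cxcl1 on Cxcl5. The log2 ratio of Cxcl1 to Cxcl2 changed by -0.67 (SE 0.17), that of Cxcl1 to Cxcl5 by 0.60 (SE 0.06) and that of Cxcl2 to Cxcl5 by 1.27 (SE 0.19; exact permutation, adjusted p = 0.0468 for each). The 3 ratios that involve Cxcl3 did not pass, with differences of 0.41, 1.09 and 0.18 (exact permutation, adjusted p = 0.343, 0.119 and 0.629). A ratio between genes that did not pass is not shown to be equal, least of all for Cxcl3.

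Levels of different ligands were compared per kb of exon. In BSA, Cxcl1 ranked 3452 of 16245 genes by mean CPM per kb, Cxcl5 9264, Cxcl2 15689 and Cxcl3 16236. With IL-1β the ranks were 224 for Cxcl1 and 1633 for Cxcl5. With palmitate Cxcl5 ranked 54 and Cxcl1 91, and with both agents Cxcl1 ranked 47 and Cxcl5 50. These 2 genes were thus among the 100 most abundant messages per kb whenever palmitate was present. Cxcl2 reached rank 4161 at most, with both agents, and Cxcl3 rank 13880. The 4 ligands together took 0.00179% ± 9.81e-05 (SD, n = 4) of all counts in BSA, 0.0186% ± 0.00136 with IL-1β, 0.0965% ± 0.00278 with palmitate and 0.127% ± 0.00884 with palmitate + IL-1β.

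Cxcl1 made up most of this sum in BSA and with IL-1β, and Cxcl5 made up a far larger share whenever palmitate was present. By CPM per kb of all annotated exons, Cxcl1 was 82.1% ± 1.94 (SD, n = 4) of the sum in BSA and 81.5% ± 0.546 with IL-1β. It was 40.3% ± 1.73 with palmitate and 50.2% ± 0.655 with both agents. Cxcl5 was 17.1% ± 2.04, 15.8% ± 0.480, 59.2% ± 1.75 and 48.8% ± 0.818 in the same order. The share of Cxcl2 was 2.62% ± 0.0595 with IL-1β and under 1% on average in the other 3 conditions, and that of Cxcl3 averaged 0.109% at most. The annotated exons of these genes include retained introns, so the shares were also taken over the canonical transcript. Then Cxcl1 led Cxcl5 with palmitate too (52.2% against 47.1%), and with both agents (61.9% against 36.9%). Which of these ligands led with palmitate therefore depended on the length used, whereas the larger share of Cxcl5 in the palmitate conditions did not.

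**Figure D3:**
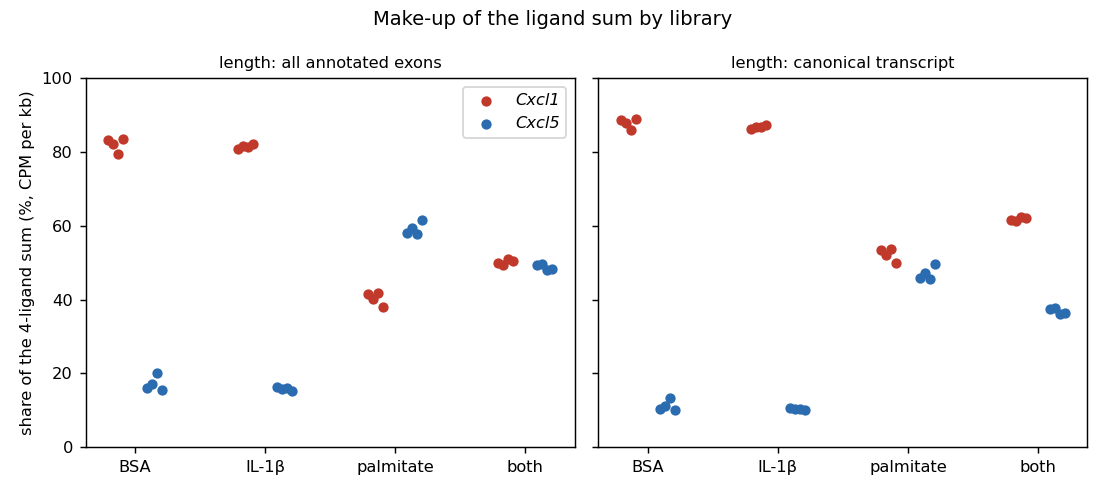
Share of Cxcl1 and Cxcl5 in the sum of the 4 ligands (percent, from CPM per kb) in each library, with the length of all annotated exons on the left and of the canonical transcript on the right. With either length Cxcl5 moves from 20% or less in BSA and IL-1β to 36% or more with palmitate, but it lies above Cxcl1 in palmitate only on the left.

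On the log2 scale the agents did less together than the sum of their separate effects for Cxcl1 and Cxcl5. The interaction term was -2.69 for Cxcl1 (SE 0.08, adjusted p = 1.6e-21, edgeR) and -3.20 for Cxcl5 (SE 0.09, adjusted p = 1.1e-21, edgeR), a negative call made for 1.83% of genes tested. For Cxcl2 and Cxcl3 the term uses the same near-empty BSA libraries through which these genes had to differ, so its values, -3.79 (SE 0.30) and -4.55 (SE 0.92), are a description with no test. That of Cxcl3 was -6.20 without BSA 1, the library with its 1 BSA count. On the linear scale the picture differed. Cxcl1 with both agents was at 642 ± 34.9 CPM (SD, n = 4), 112 CPM above the 529.9 CPM that the separate increments add up to (SE 21.1). Cxcl2 was at 13.6 ± 2.21 CPM, 3.21 CPM above its sum of 10.4 (SE 1.21). Cxcl5 was at 630 ± 43.4 CPM, 21.1 CPM above 609 with an SE of 22.7. Single libraries decided that value, which was 8.13 CPM without palmitate + IL-1β 13 and 41.7 CPM without palmitate + IL-1β 15. Cxcl3 differed from its sum by -0.196 CPM with an SE of 0.216. This was -0.352 CPM without palmitate + IL-1β 13, and -0.104, -0.114 and -0.121 CPM without palmitate + IL-1β 16, IL-1β 5 and palmitate 9. Hence Cxcl1 and Cxcl2 lay above the sum in CPM by more than the SE, and for Cxcl5 and Cxcl3 the departure from the sum was under its SE. No test was run on the linear scale.

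Seen as increments, IL-1β added 137 CPM of Cxcl1 to BSA and 249 CPM to palmitate. For Cxcl2 the increments were 5.18 and 8.39 CPM. For Cxcl5 they were 26.5 and 47.6 CPM, the latter not separable from the spread between libraries. Palmitate alone gave 92.4% of the increment of Cxcl5 that both agents gave together, 60.4% of that of Cxcl1 and 37.7% of that of Cxcl2. IL-1β alone gave 4.22%, 21.7% and 38.4%.

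**Figure D4:**
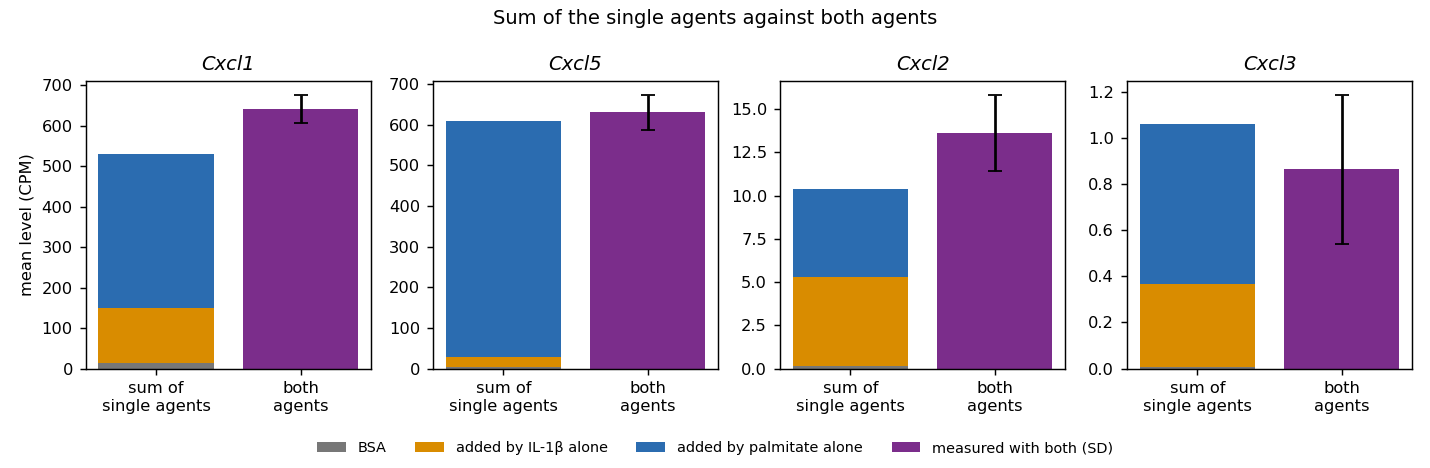
Mean level (CPM) of each ligand as the sum of BSA and the increments of IL-1β and palmitate alone (stacked bar) beside the level measured with both agents (bar with SD, 4 libraries). The measured bar exceeds the stack for Cxcl1 (642 against 529.9 CPM) and Cxcl2 (13.6 against 10.4 CPM), while for Cxcl5 and Cxcl3 the stack lies within the SD of the measured bar.

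Around the ligands, from 250 kb before Cxcl5 to 250 kb past Cxcl2, the GENCODE annotation held 32 genes, of which 24 were in the table of counts and 10 had enough counts to be tested. Apart from the 4 ligands these were Rassf6, Ppbp, Gm55977, Mthfd2l, Ereg and Areg. Neighbours of the ligands did not move to the same extent. Ppbp, which encodes a platelet CXC chemokine precursor and lies between Cxcl5 and Cxcl3, was at 0.993 ± 0.192 CPM in BSA and 1.99 ± 0.267 CPM with palmitate (log2 fold change 1.01, adjusted p = 6.9e-05, edgeR). With IL-1β it was at 0.631 ± 0.119 CPM (log2 fold change -0.63, adjusted p = 0.0647, edgeR). Pf4, another platelet chemokine gene on the same side of Cxcl3, and Cxcl15, a lung chemokine gene just past Cxcl3, had at most 2 counts in any library. Mthfd2l, which lies outside the ligand span, changed with palmitate by a log2 fold change of 0.49 (adjusted p = 1.8e-05, edgeR). Rassf6, also outside the span, was at 0.293 ± 0.161 CPM in BSA and 0.531 ± 0.0606 CPM with palmitate. It passed the filter on low counts only through treated libraries, so its log2 fold change of 0.87 is a description. Neither gene passed with IL-1β.

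Ereg and Areg, which encode the growth factors epiregulin and amphiregulin, lie past Cxcl2 on the same strand. Ereg was at 6.34 ± 0.315 CPM in BSA, 10.5 ± 0.707 with IL-1β, 21.4 ± 0.313 with palmitate and 27.3 ± 2.99 with both (log2 fold changes 0.73, 1.76 and 2.11, adjusted p = 9.9e-08, 2.0e-18 and 9.1e-21, edgeR). Areg was near the floor in BSA, at 0.0256 ± 0.0333 CPM, and at 0.338 ± 0.0492, 0.249 ± 0.0919 and 0.522 ± 0.0545 CPM in the other conditions. Gm55977, annotated as a ribosomal RNA gene of 117 bases, starts 265 bases past the end of Cxcl1 on the same strand. Its levels were 0.143 ± 0.0567, 0.981 ± 0.414, 2.60 ± 0.340 and 4.76 ± 0.824 CPM in BSA, IL-1β, palmitate and both, the same order as Cxcl1. Whether its reads come from transcripts of Cxcl1 that run past the annotated end was not tested. Areg and Gm55977 passed the filter on low counts only through treated libraries, so their differences from BSA are a description.

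**Figure D5:**
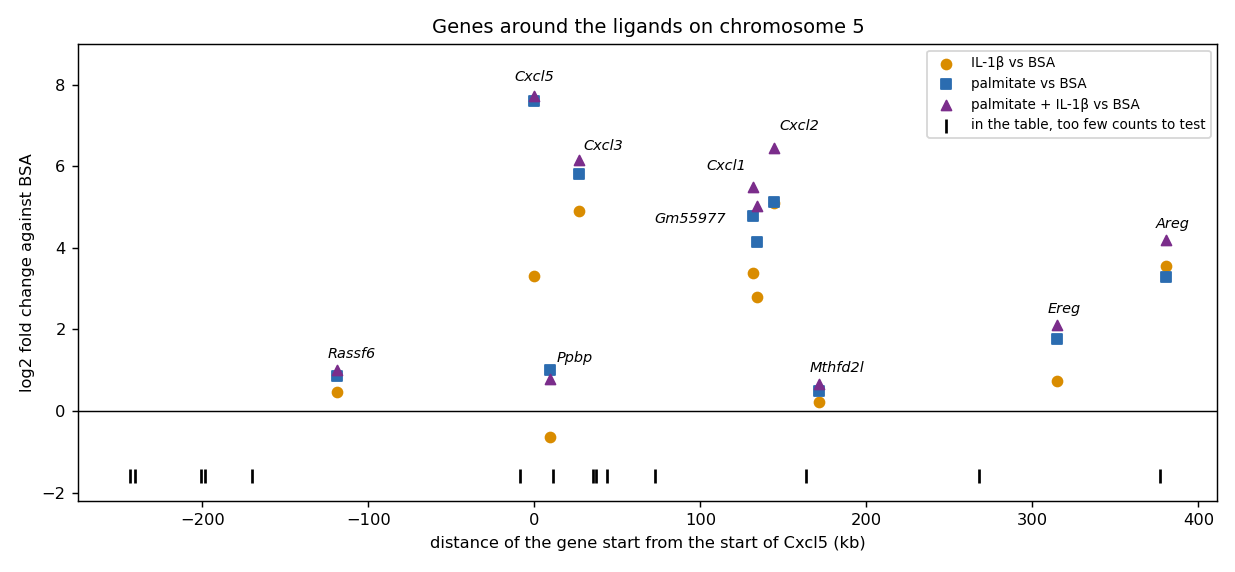
Fitted log2 fold change against BSA of the 10 tested genes around the ligands, by the distance of the gene's start from that of Cxcl5 (kb). Ticks mark 14 genes of the table with too few counts to test. Ppbp sits between Cxcl5 and Cxcl3 with values between -0.63 and 1.01, while Gm55977 next to Cxcl1 reaches 5.02. Values of Cxcl2, Cxcl3, Gm55977, Areg and Rassf6 are a description, since these genes passed the filter on low counts only through treated libraries.

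The other CXC ligand genes on chromosome 5 lie farther out, Cxcl9, Cxcl10 and Cxcl11 from 1415.409 kb past the end of Cxcl2 and Cxcl13 at 5051.013 kb. Of 11 other CXC ligands, 6 were tested. With IL-1β 4 rose and 2 did not pass, with palmitate 6 rose, and with both agents 6 rose, against 10.1%, 19.8% and 24.8% of all genes tested. Their median log2 fold changes were 2.27, 4.61 and 4.77, beside medians within 0.01 of 0 over all genes tested. Cxcl9 and Cxcl11 averaged 0.0155 and 0 CPM in BSA and passed the filter on low counts only through treated libraries. Their calls against BSA are a description, and they enter these counts and medians. Cxcl10, which attracts activated T cells, went from 1.94 ± 0.590 CPM in BSA to 15.5 ± 1.80 with IL-1β, 54.6 ± 4.94 with palmitate and 67.4 ± 18.5 with both. Cxcl16, a membrane-bound ligand of CXCR6, went from 2.69 ± 0.377 to 7.86 ± 0.569, 57.1 ± 3.09 and 58.0 ± 3.17 CPM. Cxcl9, a further T-cell attractant, was at the floor in BSA, at 0.366 ± 0.199 CPM with IL-1β and at 9.20 ± 0.642 CPM with palmitate. When IL-1β was added to palmitate, 5 of the 6 did not pass, and Cxcl12, a ligand that retains neutrophils in bone marrow, was lower, with a log2 fold change of -0.43 (SE 0.06, adjusted p = 1.8e-06, edgeR).

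Messages of the receptors were at the counting floor. Cxcr1 and Cxcr2 had at most 1 count in any library and Ackr1 at most 3, so none could be tested, and expression under the floor was not detectable at this depth.

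Genes of the chain from the IL-1 receptor to NF-κB had smaller fold changes than the ligands. Of 22 genes tested, 12 rose and 10 did not pass with IL-1β, where 10.1% of all genes tested rose. With palmitate 14 rose and 1 fell (19.8% of all genes rose), and with both 17 rose and 1 fell (24.8%). The median log2 fold changes were 0.17, 0.41 and 0.51. Nfkbia, the inhibitor IκBα and itself an NF-κB target, went from 16.8 ± 0.982 CPM in BSA to 46.8 ± 2.85, 75.1 ± 1.61 and 87.7 ± 1.80 CPM with IL-1β, palmitate and both. Nfkbiz, an IκB-like protein that acts in the nucleus as a co-regulator of NF-κB targets, went from 16.5 ± 1.54 to 42.8 ± 1.16, 83.5 ± 2.59 and 100 ± 6.32 CPM. The order of these conditions was that of Cxcl1. Both rose when IL-1β was added to palmitate, by log2 fold changes of 0.22 (adjusted p = 0.00115, edgeR) and 0.26 (adjusted p = 5.4e-04, edgeR). Nfkb1 and Nfkb2, the genes for the p105 and p100 subunits, had log2 fold changes of 1.17 and 0.93 with palmitate. Irak1, a kinase of the receptor complex, was at -0.05 and 0.03 with IL-1β and palmitate and did not pass. Irak2 was the gene that fell with palmitate and with both, by 0.20 and 0.17 on the log2 scale.

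Among 13 regulators of chemokine message stability, 6 rose with IL-1β (against 10.1% of all genes tested), 10 with palmitate (19.8%) and 11 with both (24.8%). The other regulators did not pass. Over the 13 the median log2 fold changes were 0.29, 0.38 and 0.31. The largest changes of the list were those of Zc3h12a, the endonuclease Regnase-1 that degrades inflammatory messages. It went from 6.48 ± 0.448 CPM in BSA to 19.2 ± 0.965, 47.2 ± 2.38 and 46.2 ± 2.75 CPM with IL-1β, palmitate and both (log2 fold changes 1.57, 2.86 and 2.83, adjusted p = 1.4e-17, 7.6e-26 and 7.9e-26, edgeR). Zfp36l2, which binds AU-rich elements and promotes decay, rose with palmitate by a log2 fold change of 0.72 (adjusted p = 6.7e-16, edgeR). Its relative Zfp36l1 rose by 0.36 (adjusted p = 1.5e-07, edgeR). Elavl1, the HuR protein that stabilises such messages, was at 0.10 (adjusted p = 0.0916, edgeR). Genes known to favour decay and genes known to favour stability thus appeared among those that rose, Mapkapk2 of the latter kind by 0.38 with palmitate (adjusted p = 1.7e-09, edgeR).

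Of 15 other genes that act on neutrophils or guide their passage, 9 were tested. With IL-1β 6 rose, with palmitate 8 and with both 8, against 10.1%, 19.8% and 24.8% of all genes tested, while Lta4h fell with both. Their median log2 fold changes were 1.13, 4.23 and 4.41. Csf3, Lcn2 and Saa3 averaged 0.0777, 0.0682 and 0.0835 CPM in BSA and passed the filter on low counts only through treated libraries. Their calls against BSA are a description, and they enter these counts and medians. Icam1, the adhesion molecule that neutrophil integrins bind, went from 1.19 ± 0.435 CPM in BSA to 13.2 ± 0.879, 109.8 ± 1.40 and 123 ± 7.99 CPM. Vcam1 went from 44.4 ± 3.66 to 146 ± 5.79, 567 ± 13.4 and 588 ± 19.9 CPM. C3, the complement component, went from 18.0 ± 1.39 to 58.5 ± 3.79, 418 ± 18.5 and 454 ± 13.4 CPM. As for Cxcl5, the difference between palmitate + IL-1β and palmitate did not pass for these genes (adjusted p = 0.0831, 0.558 and 0.118, edgeR). Ptgs2, the cyclooxygenase of prostaglandin synthesis, was the single gene of this list that rose when IL-1β was added to palmitate (log2 fold change 1.00, SE 0.05, adjusted p = 6.9e-16, edgeR). Of all genes tested, 5.71% rose in that comparison.

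Likeness to each ligand was measured as the root mean square difference of the 3 log2 fold changes against BSA, over 11824 genes with an average log2 CPM of at least 1. Closest to Cxcl1 were Cxcl10 (0.31), the noncoding gene Gm16685 (0.43) and Icosl (0.56). Closest to Cxcl5 were Saa3, an acute-phase serum amyloid (0.35), the chemokine gene Ccl5 (0.67) and Nos2, the inducible nitric oxide synthase (0.72). The ligands themselves were left out of these matches. Cxcl2 had no near match among the other genes, the closest of them being Icam1 at 1.25, Tgtp1 at 1.40 and Cxcl10 at 1.46. For Cxcl3 they were Icam1 (0.97), Tgtp1 (1.18) and Gbp5 (1.22). Among the other 3 ligands the difference was 1.16 for Cxcl1 and Cxcl2, which are nearest on the chromosome, 1.91 for Cxcl2 and Cxcl5, and 2.09 for Cxcl1 and Cxcl5. Distances to Cxcl3 rest on its 1 BSA count, so it was not ranked against the other ligands. Values of Saa3, Nos2 and Tgtp1 also rest on few BSA counts, with means of 0.0835, 0.0861 and 0.152 CPM in BSA. Those of Cxcl2 rest on 18 BSA counts, so its distances and its lack of a near match are a description.

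The promoter letters GGGAATTTCC described above were present in 29 genes, of which 14 were tested, among them the 3 ligands, Nfkbia and Gbp5. Of these 14, 6 rose with IL-1β (42.9%, against 10.1% of all genes tested), 6 with palmitate (42.9%, against 19.8%) and 8 with both (57.1%, against 24.8%), and 1 fell in each comparison. The ligands themselves are among those that rose, and the letters were picked from their promoters, so these shares are a description. The median log2 fold changes were 0.18, 0.17 and 0.39. Map3k7, the kinase TAK1, was at 0.04, 0.10 and 0.11 in the 3 comparisons.

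The ligands shared little sequence with each other. Of the 50-base windows of each gene's transcripts, 0% of Cxcl1, 5.84% of Cxcl2 and 4.29% of Cxcl3 occurred in transcripts of another gene, those of Cxcl2 all in Cxcl3. Of Cxcl5, 21.3% did, but only 0.665% on the same strand, since 20.6% was shared with Gm72413, an antisense noncoding gene that overlaps it. Reads that align equally well to Cxcl2 and Cxcl3 were not counted for either gene, and the part of this in their levels was not tested.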

How the data were processed

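Bulk RNA of 16 mGF libraries was analysed, 4 per condition. The authors used Trimmomatic 0.39 for trimming, STAR 2.7.10a for alignment to GRCm39 and HTSeq 2.0.9 for counting per gene by strand, and deposited those raw counts without scaling or filtering. Per the labels the kit captured total RNA with strand, whereas the methods describe oligo(dT) priming. Summary entries that name no gene took 18.3 to 21.4% of a library and did not enter the analysis. HTSeq does not count reads that align to more than 1 place, so sequence shared between ligands is under-counted.

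From the deposited counts, all 16 libraries entered a single fit in edgeR 4.0.16 (R 4.3.3), with glmQLFit (robust), glmQLFTest, TMM scaling and filterByExpr (minimum count 10, minimum total 15), which kept 16306 genes. Calls were made at a Benjamini-Hochberg adjusted p under 0.05 over all genes tested. Ratios of 2 ligands used counts with a pseudocount of 0.5 and an exact two-sided permutation test. Shares and additivity are values with no test. The fit was tested on simulated data for palmitate against BSA with 16010 genes, and recovered 83 of 97 genes changed by 1 on the log2 scale and 99 of 100 changed by 2, with 11 unchanged genes called.

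Positions, exon lengths and 3′ untranslated regions come from GENCODE vM39 on GRCm39, in which 56323 of the 56941 genes of the table were found, and promoters from RefSeq. Genes named are the 4 ligands, up to 8 genes per list by average level, the tested genes around the ligands and, outside the ligands, the 3 genes most like each. Irak2, Zc3h12a and Gm38531 were named after their values were seen, and the promoter letters were picked after the promoters had been read. The members and the lists were chosen with earlier results of these data known. Alternatives were DESeq2 1.42.0, its size factors in edgeR, upper-quartile scaling, other filters, fits of only the libraries compared, leaving out mitochondrially encoded genes, other lengths and pseudocounts, unscaled totals, and leaving out each library in turn.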

Additional observations from a re-analysis of the deposited data

Results flagged for a closer look

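The effect of one agent differed with the other agent present, by the interaction term of the fit on the log2 scale, at -2.69 for Cxcl1 and -3.20 for Cxcl5. The term was -3.79 for Cxcl2 and -4.55 for Cxcl3, which rest on 18 counts and 1 count in BSA and are a description. The linear departures for Cxcl1 and Cxcl2 had the other sign.

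Some libraries stood far from the others of their condition, measured as the gap to the nearest library over the whole range of the 4. For Cxcl1 with IL-1β this was 0.852, with IL-1β 7 the highest at 166 CPM. For the 4 ligands summed in BSA it was 0.832, with BSA 3 the lowest. For Cxcl3 in BSA, and for its share of the sum there, it was 1.0, because 1 library had a single count and the others had none. Chance alone marks about 1 in 20 groups of this size.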

How the results depend on the processing

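No paired analysis was possible because the labels do not say which libraries of different conditions share a culture or animal. The library numbers, 1 to 16 through the series, do not settle whether any do. Of the fold changes of the ligands, 172 kept direction and call across scaling, filter, tool and the libraries fitted, and 441 did so with 1 library left out. The exceptions were comparisons near 0 or with few counts. Cxcl2 in palmitate against IL-1β was -6.3e-05 with upper-quartile scaling and ran from -0.15 to 0.087 with 1 library left out, against 0.02. Cxcl3 in palmitate against IL-1β passed with only the libraries compared (0.91) and ran from 0.70 to 1.26 with 1 library left out, passing without IL-1β 5 (adjusted p = 0.0168), palmitate 12 (0.0315), palmitate + IL-1β 13 (0.0494) or 16 (0.0497, edgeR). Cxcl3 in palmitate + IL-1β against IL-1β ran from 0.95 to 1.61, and Cxcl5 in palmitate + IL-1β against palmitate from 0.079 to 0.16. At least 10 counts in every library left no value for Cxcl2 and Cxcl3, and DESeq2 gave no adjusted p for 3 of 28 comparisons. Counts of genes called stayed within 1.5 times under every alternative run. Ratios of ligands kept their direction and call with other pseudocounts. With 1 library left out, where they were not tested, they kept their direction except Cxcl3 to Cxcl5 in palmitate + IL-1β against palmitate, which ran from -0.049 to 0.35 against 0.18 and turned without palmitate + IL-1β 13 or palmitate 12. Departures from additivity kept their sign, but ran from 8.13 to 41.7 CPM for Cxcl5 and from -0.352 to -0.104 CPM for Cxcl3. With the length of the canonical transcript, chosen after seeing the data, the share of Cxcl1 was 87.9% in BSA, 86.8% with IL-1β, 52.2% with palmitate and 61.9% with both. That of Cxcl5 was 11.2%, 10.3%, 47.1% and 36.9%, that of Cxcl2 with palmitate 0.598%, and that of Cxcl3 0.203%, 0.0872% and 0.0783% with IL-1β, palmitate and both. With no length correction Cxcl2 with IL-1β was 2.87%, and Cxcl3 was 0.201%, 0.0710% and 0.0669%. Depth limits Cxcl3 in all conditions and Cxcl2 in BSA.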
